A study of Penicillium oxalicum with 9 samples.

Results

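Xyloglucan-specific endoglucanases cut the glucose backbone of xyloglucan, and 2 genes of Penicillium oxalicum carry that KEGG Orthology entry, PDE_02886 and PDE_06439. They were taken from the deposited table of 9786 genes because their entry names a xyloglucan-specific endo-beta-1,4-glucanase, and no other gene in the table has it. The values come from RNA sequencing of mycelia of this filamentous fungus, which secretes enzymes that break down plant cell walls. There were 3 cultures of the strain labelled as a PoflbC deletion (dPoflbC), 3 of the strain labelled as a PoClrC deletion (dPoClrC) and 3 of the strain labelled as a CA deletion (dCA), all described as biological replicates. In every culture Vogel's medium was used with 2% glucose for 22 h, with no carbon for 2 h and then with 2% cellulose for 4 h, all with shaking (200 rpm) at a temperature of 30 °C. The labels do not explain CA or say whether a strain is a single clone, and each strain is a deletion, so there was no unmutated strain to show which side of a difference had changed. In the related fungus Aspergillus nidulans, FlbC is a zinc finger regulator of spore formation.

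Xyloglucan coats cellulose in the primary walls of plants. Its backbone is a chain of glucose units joined as in cellulose, and most of them carry xylose, which can in turn carry galactose and fucose. An endoglucanase that prefers this branched chain cuts it into oligosaccharides, and alpha-xylosidases, beta-galactosidases, fucosidases and beta-glucosidases then trim these from their ends. In fungi such enzymes are usually secreted together with cellulases when plant material is the carbon source.

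The 2 genes share a description, putative endo-beta-1,4-glucanase, and differ in the rest of their annotation. PDE_02886 has a coding length of 756 bases, and its best KEGG match, a gene of Aspergillus fumigatus, has a bit score of 297 and an E-value of 5e-101. PDE_06439 has a coding length of 714 bases, and its best match, a gene of Aspergillus clavatus, has a bit score of 318 and an E-value of 2e-109. PDE_02886 also carries the Gene Ontology term cellulase activity, and PDE_06439 carries no term. Positions, sequences and the identity between the 2 genes were not analysed here. The table's header calls the reads unique, and how reads matching both genes would have been treated, or whether strand was used, is not given in the sources used here.

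Libraries held 6.49 to 7.76 M reads in genes (M, 1e+06). Levels are given as RPKM (reads per M reads and per kilobase of coding sequence), with mean ± SD and n = 3 per strain, and 3 reads, the limit that a count of 0 allows, correspond to 0.512 to 0.611 RPKM in PDE_02886 and 0.542 to 0.647 RPKM in PDE_06439. Log2 fold changes come from edgeR's quasi-likelihood test on the counts after scaling of the libraries by TMM, so they differ from ratios of mean RPKM. The words rose and fell, and called, are kept for genes with a Benjamini-Hochberg adjusted p under 0.05, over the 8681 genes tested, together with a log2 fold change of at least 1 in size. The scaling factors were 1.20 to 1.24 in dPoflbC, 0.988 to 1.03 in dPoClrC and 0.680 to 0.906 in dCA, and the library of dCA replicate 2, at 0.680, stood apart from the other dCA libraries. Neither deleted gene is named in the annotation, which left no check of the deletions. Both xyloglucan endoglucanases had enough reads to be tested.

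The 2 genes went in opposite directions in dPoflbC against dCA: PDE_02886 rose and PDE_06439 fell. PDE_02886 averaged 54.8 ± 2.96 RPKM in dPoflbC, 36.1 ± 4.55 RPKM in dPoClrC and 17.2 ± 2.82 RPKM in dCA. PDE_06439 averaged 10.4 ± 0.981 RPKM in dPoflbC, 14.9 ± 2.51 RPKM in dPoClrC and 19.8 ± 5.19 RPKM in dCA. The order of the strains in one gene was thus the reverse of the order in the other, with dPoClrC between dPoflbC and dCA in both.

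PDE_02886 was at 52.1, 58.0 and 54.4 RPKM in dPoflbC replicates 1, 2 and 3, from 289, 340 and 290 reads. In dPoClrC it had 33.2, 33.7 and 41.3 RPKM, from 169, 178 and 217 reads, and in dCA 17.9, 14.1 and 19.6 RPKM, from 88, 79 and 111 reads. All dPoflbC libraries lay above all dPoClrC libraries, and all of these above all dCA libraries, before and after scaling. By level, the gene lay above 65.8% to 69.6% of all genes of a dPoflbC library, 57.3% to 64.1% of those of a dPoClrC library and 43.6% to 47.3% of those of a dCA library. Reads covered 98.2% to 99.6% of its length in dPoflbC, 98.0% to 99.7% in dPoClrC and 95.5% to 99.6% in dCA.

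PDE_06439 was at 9.36, 10.5 and 11.3 RPKM in dPoflbC replicates 1, 2 and 3, from 49, 58 and 57 reads. In dPoClrC it had 16.2, 12.0 and 16.5 RPKM, from 78, 60 and 82 reads, and in dCA 13.8, 22.9 and 22.7 RPKM, from 64, 121 and 121 reads. The dPoflbC libraries lay below those of both other strains, while dPoClrC and dCA overlapped because dCA replicate 1 lay within the range of dPoClrC. The gene lay above 26.3% to 29.4% of all genes of a dPoflbC library, 34.1% to 40.4% of those of a dPoClrC library and 37.5% to 57.5% of those of a dCA library. Reads covered 94.5% to 96.1% of its length in dPoflbC, 94.4% to 97.6% in dPoClrC and 97.5% to 99.6% in dCA.

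Counting error alone was wide at these depths. The exact 95% binomial interval was 6.92 to 12.4 RPKM for PDE_06439 in dPoflbC replicate 1, the library with the fewest reads of either gene, and 52.0 to 64.5 RPKM for PDE_02886 in dPoflbC replicate 2, the library with the most. These intervals cover counting error only. The spread between replicates beyond counting, as edgeR's biological coefficient of variation, was 9.85% for PDE_02886 and 20.8% for PDE_06439, against a median of 12.6% over all genes tested.

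**Figure D1:**
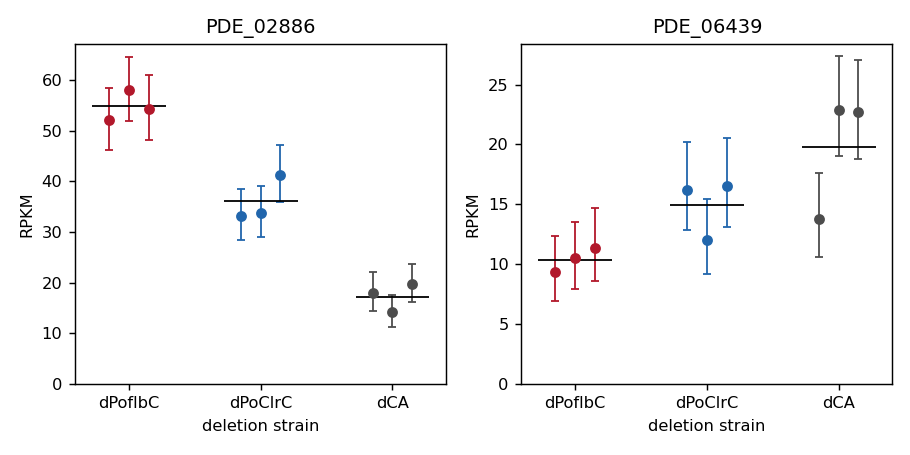
RPKM of PDE_02886 (left) and PDE_06439 (right) in each library of the 3 deletion strains; points are libraries, bars are exact 95% binomial intervals for counting error, and black lines are strain means. PDE_02886 stepped down over dPoflbC, dPoClrC and dCA with no overlap between strains, and PDE_06439 was lowest in dPoflbC, with dCA replicate 1 at 13.8 RPKM among the dPoClrC libraries.

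The comparison of dPoflbC with dCA asks how the transcripts differed on cellulose between these deletion strains. PDE_02886 rose, with a log2 fold change of 1.09 (standard error 0.126, 95% interval 0.81 to 1.37, adjusted p = 4.18e-05), and its mean RPKM was 3.18 times as high. PDE_06439 fell, with a log2 fold change of -1.55 (standard error 0.267, 95% interval -2.14 to -0.95, adjusted p = 0.00062), and its mean RPKM was 0.524 times as high. One gene of the 2 was thus called higher and one lower, where 11.4% of all genes tested were called higher and 15.8% lower (27.1% in all), 60.9% had an adjusted p under 0.05 at any fold, and the scaled libraries of 68.2% did not overlap, as those of both genes did not. Without dCA replicate 2 the log2 fold changes were 1.10 and -1.26, both still called. With no scaling beyond library size the change of PDE_06439 was -0.93 and was no longer called, while that of PDE_02886 was 1.67; this choice moved the median of all genes to 0.51 from -0.07, so each change is relative to the scaling.

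The comparison of dPoClrC with dCA asks the same of the strain without PoClrC. The log2 fold change of PDE_02886 was 0.76 (standard error 0.128, 95% interval 0.48 to 1.05, adjusted p = 0.00162), and that of PDE_06439 was -0.75 (standard error 0.259, 95% interval -1.33 to -0.17, adjusted p = 0.0438). Neither reached the fold threshold, so 0 of 2 were called, where 13.0% of all genes tested were called in either direction and 37.8% had an adjusted p under 0.05 at any fold. The scaled libraries of PDE_02886 did not overlap and those of PDE_06439 did, where 50.6% of all genes tested did not overlap. PDE_02886 came to 1.06 and was called with no scaling. The value of PDE_06439 rested on single libraries: it was -0.48 without dCA replicate 2 (adjusted p = 0.155) and -1.01, now called, without dCA replicate 1 (adjusted p = 0.00316), and over all alternatives its adjusted p ran from 0.00316 to 0.18.

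Between dPoflbC and dPoClrC both changes were smaller in size than between dPoflbC and dCA. The log2 fold change of PDE_02886 was 0.33 (standard error 0.119, 95% interval 0.062 to 0.59, adjusted p = 0.0379), with no overlap between the libraries, and that of PDE_06439 was -0.80 (standard error 0.273, 95% interval -1.40 to -0.19, adjusted p = 0.0294), also with no overlap. Again 0 of 2 were called, where 22.6% of all genes tested were called, 57.1% had an adjusted p under 0.05 at any fold and 69.6% did not overlap after scaling. Over the 3 strains together, edgeR's F test of equal means gave an adjusted p of 0.000105 for PDE_02886 and 0.00153 for PDE_06439, as it gave a value under 0.05 for 73.5% of all genes tested. The 3 comparisons share libraries and are not independent of each other.

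A ratio within a library does not depend on how the libraries are scaled, so the balance between the 2 genes was compared that way. PDE_02886 was at 5.57, 5.54 and 4.81 times the RPKM of PDE_06439 in dPoflbC replicates 1, 2 and 3, at 2.05, 2.80 and 2.50 times in dPoClrC and at 1.30, 0.617 and 0.866 times in dCA. In dPoflbC and dPoClrC it was the more abundant transcript of the 2 in every library, and in dCA neither was higher throughout. The mean log2 ratio was 2.40 ± 0.121 in dPoflbC, 1.28 ± 0.229 in dPoClrC and -0.18 ± 0.538 in dCA (SD, n = 3 each). The strains differed in this ratio (exact permutation test over the 3 strains, p = 0.00357, the smallest that 1680 assignments of the 9 libraries can give; 0.00536 after adjustment over the 3 ratios tested here). The difference in log2 ratio was 2.58 between dPoflbC and dCA, 1.46 between dPoClrC and dCA and 1.12 between dPoflbC and dPoClrC, each with no overlap between libraries and an exact two-sided permutation p of 0.10, the smallest that 3 libraries against 3 allow. The summed level of both genes was 65.2 ± 3.52 RPKM in dPoflbC, 51.0 ± 6.21 RPKM in dPoClrC and 37.0 ± 5.29 RPKM in dCA.

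**Figure D2:**
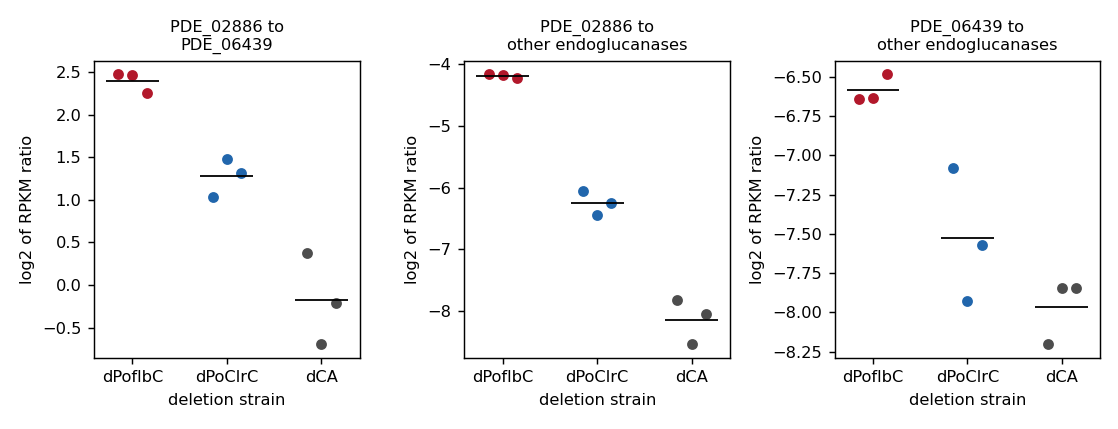
Log2 ratio of RPKM within each library, for PDE_02886 to PDE_06439 (left) and for each of them to the summed RPKM of 10 other endoglucanases (middle and right); points are libraries, lines are strain means, and the vertical scales differ. The ratio of PDE_02886 to PDE_06439 averaged 2.40 in dPoflbC, 1.28 in dPoClrC and -0.18 in dCA.

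Genes with an endoglucanase description or entry, but without the xyloglucan entry, were the genes most like the pair by annotation. Endoglucanases of cellulose cut within its chains, but the annotation does not show this for every gene here. PDE_09267 has only an incomplete EC number, and PDE_09014 has no KEGG name. Of the 10 in the table, which include PDE_01261, described as a cellulose monooxygenase, 8 fell and 0 rose in dPoflbC against dCA, with a median log2 fold change of -4.48 against -0.07 over all genes tested, of which 15.8% were called lower and 11.4% higher. In dPoClrC against dCA 6 fell and 0 rose (median -1.58), where 7.35% of all genes tested were called lower and 5.69% higher. In dPoflbC against dPoClrC 7 fell and 0 rose (median -2.54), where 13.6% were called lower and 9.05% higher. The highest by level was the putative endo-beta-1,4-glucanase PDE_09267, at 545 ± 66.1 RPKM in dPoflbC, 1117 ± 237 RPKM in dPoClrC and 1053 ± 183 RPKM in dCA; it fell in dPoflbC against dCA (-1.53), a call that ended with no scaling (-0.95). The endoglucanase Cel45A (PDE_07928) was at 65.2 ± 18.1 RPKM in dPoflbC, 563 ± 138 RPKM in dPoClrC and 1196 ± 173 RPKM in dCA. Cel7B (PDE_07929) was at 66.4 ± 26.3 RPKM in dPoflbC, 418 ± 94.6 RPKM in dPoClrC and 1096 ± 195 RPKM in dCA, and Cel5A (PDE_00507) was at 37.2 ± 12.1 RPKM in dPoflbC, 186 ± 13.2 RPKM in dPoClrC and 493 ± 195 RPKM in dCA. These 3 named cellulases fell in all 3 comparisons. The fall in dPoflbC against dCA was largest in PDE_09226 (-5.04) and PDE_01261 (-4.93), and in dPoClrC against dCA in the endoglucanase Cel5C (PDE_09969, -2.11) and PDE_09226 (-1.997). The 2 not called in dPoflbC against dCA were PDE_03711 and PDE_09014 (-0.25). PDE_03711 was higher in dPoflbC, just under the fold threshold (0.94, edgeR adjusted p = 0.000304).

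Set against these genes, the pair took a larger part of the endoglucanase transcripts in dPoflbC. The summed RPKM of the 10 was 995 ± 55.5 in dPoflbC, 2758 ± 497 in dPoClrC and 4848 ± 673 in dCA. PDE_02886 made up 5.17% ± 0.111 of the summed RPKM of all 12 genes in dPoflbC, 1.30% ± 0.173 in dPoClrC and 0.359% ± 0.0860 in dCA, and by mean level it ranked 5, 10 and 11 of the 12 in these strains. PDE_06439 made up 0.978% ± 0.0617 in dPoflbC, 0.547% ± 0.161 in dPoClrC and 0.40% ± 0.055 in dCA, and ranked 10, 11 and 10. A larger part in dPoflbC was not particular to the pair. Of the 10 others, PDE_03711 averaged 187 RPKM in dPoflbC and 65.0 RPKM in dCA, and PDE_09014 44.2 and 36.2 RPKM. The remaining 8 were called lower in dPoflbC against dCA, which does not by itself make their part smaller. Among them, PDE_09267 averaged 545 RPKM in dPoflbC, where all 12 genes summed to 1060 RPKM. In dCA it averaged 1053 RPKM of a summed 4886 RPKM, so its part was also larger in dPoflbC.

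The ratio of PDE_02886 to the 10 others differed between the strains (exact permutation p over the 3 strains = 0.00357, adjusted 0.00536), with mean log2 ratios of -4.18 ± 0.0319 in dPoflbC, -6.25 ± 0.197 in dPoClrC and -8.14 ± 0.364 in dCA (SD, n = 3 each). The libraries of the 3 strains did not overlap, and the difference was 3.96 between dPoflbC and dCA, 1.89 between dPoClrC and dCA and 2.07 between dPoflbC and dPoClrC (exact permutation p = 0.10 each). The ratio of PDE_06439 to the 10 others also differed (exact permutation p over the 3 strains = 0.0107, adjusted 0.0107), with means of -6.59 ± 0.0888 in dPoflbC, -7.53 ± 0.425 in dPoClrC and -7.96 ± 0.208 in dCA. Here dPoflbC lay above both other strains and dPoClrC overlapped dCA, with a difference of 0.44 between these (exact permutation p = 0.30). With a replicate block the exact permutation p of this ratio over the 3 strains was 0.0556. The log2 fold change of PDE_06439 in dPoflbC against dCA was -1.55, and its log2 ratio to the 10 others was 1.38 higher there.

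A list of genes was drawn for enzymes that trim xyloglucan side chains and oligosaccharides. Its genes were called lower more often than all genes in dPoflbC against dCA. They were called lower about as often as all genes in dPoClrC against dCA. Neither was tested. The list of 39 genes was drawn by search words for alpha-xylosidases, beta-galactosidases, fucosidases, arabinofuranosidases and beta-glucosidases, and the words also drew in enzymes of arabinan, galactan and xylan. Of the 38 tested, 23 fell and 1 rose in dPoflbC against dCA (median log2 fold change -1.34), 3 fell and 1 rose in dPoClrC against dCA (median -0.06), and 20 fell and 1 rose in dPoflbC against dPoClrC (median -1.12), while the median of all genes tested was -0.07, 0.00169 and 0.0109 in these comparisons. Over all genes tested, 15.8% were called lower and 11.4% higher in dPoflbC against dCA, 7.35% lower and 5.69% higher in dPoClrC against dCA, and 13.6% lower and 9.05% higher in dPoflbC against dPoClrC. Most of the 23 that fell in dPoflbC against dCA are described as arabinofuranosidases or galactanases. The annotation does not show that these act on xyloglucan. The gene not tested was PDE_02413, described as a putative beta-xylosidase. With no scaling, 15 fell and 5 rose in dPoflbC against dCA.

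Alpha-xylosidases remove the xylose that marks xyloglucan. The alpha-xylosidase PDE_03010 had 30.4, 30.4 and 31.1 RPKM in dPoflbC, 136, 189 and 200.2 RPKM in dPoClrC and 132, 51.0 and 108 RPKM in dCA. It fell in dPoflbC against dCA, with a log2 fold change of -2.20 (edgeR adjusted p = 2.91e-05), and against dPoClrC (-2.80, adjusted p = 8.12e-06), and its dPoflbC libraries lay below all others. The second alpha-xylosidase, PDE_06944, was at 82.9 ± 6.18 RPKM in dPoflbC, 98.8 ± 18.9 RPKM in dPoClrC and 106 ± 13.2 RPKM in dCA and was called in no comparison. The putative alpha-1,2-L-fucosidase PDE_04858, an enzyme that removes fucose, was at 15.3 ± 1.01 RPKM in dPoflbC, 47.3 ± 1.82 RPKM in dPoClrC and 53.1 ± 7.51 RPKM in dCA and fell in dPoflbC against dCA (-2.38). These 3 genes were chosen after their values were seen.

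Among the genes of this list with the highest levels, the putative alpha-L-arabinofuranosidase PDE_06067 was at 121 ± 11.6 RPKM in dPoflbC, 1250 ± 258 RPKM in dPoClrC and 762 ± 93.2 RPKM in dCA. The beta-glucosidase BGL2 (PDE_00579) was at 191 ± 38.8 RPKM in dPoflbC, 454 ± 104 RPKM in dPoClrC and 633 ± 71.5 RPKM in dCA. Both fell in dPoflbC against dCA, with log2 fold changes of -3.24 and -2.33, as did the putative alpha-L-arabinofuranosidase PDE_00016 (-4.47), while the putative beta-xylosidase/alpha-L-arabinofuranosidase PDE_08036 (-0.98) did not reach the fold threshold. The falls were largest in PDE_07334 (-4.73), described as PDE_08036 is, and in PDE_07585 (-4.48), described as PDE_00016 is. The gene that rose in dPoflbC against dCA, the putative alpha-L-arabinofuranosidase PDE_00276 (2.65), was at 1.43 ± 0.0732 RPKM in dPoflbC, 0.35 ± 0.0819 RPKM in dPoClrC and 0.146 ± 0.0699 RPKM in dCA and was not called by limma when 5 was added to each RPKM. In dPoClrC against dCA PDE_07585 fell (-2.44), as did the putative alpha-L-arabinofuranosidase PDE_07897 (-1.55, with -0.81 without dCA replicate 2, a call that ended without dCA replicate 2, dPoClrC replicate 1 or dPoClrC replicate 2), and the putative alpha-L-arabinofuranosidase PDE_06546 rose (1.09, with 0.91 without dCA replicate 2, a call that ended without dCA replicate 2 or dPoClrC replicate 3).

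**Figure D3:**
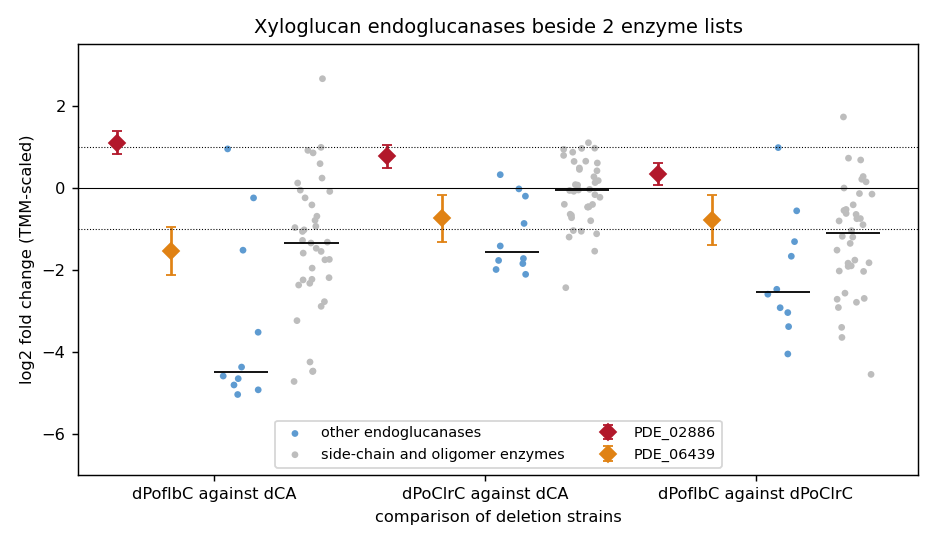
Log2 fold changes after TMM scaling in 3 comparisons of deletion strains, for PDE_02886 and PDE_06439 (diamonds with 95% intervals), 10 other endoglucanases and 38 side-chain and oligomer enzymes (dots, 1 per gene, black lines at the medians); dotted lines mark the fold threshold. In dPoflbC against dCA PDE_02886 lay at 1.09 and PDE_06439 at -1.55, while the median of the other endoglucanases was -4.48.

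Activators of these enzyme families fell in dPoflbC against dCA. XlnR (PDE_07674), which activates genes for xylanases and cellulases, had 19.5 ± 1.06 RPKM in dPoflbC, 35.0 ± 3.93 RPKM in dPoClrC and 38.8 ± 5.04 RPKM in dCA, and ClrB (PDE_05999), an activator of cellulase genes, was at 70.1 ± 10.2, 83.3 ± 7.51 and 99.0 ± 7.17 RPKM in these strains. Both fell in dPoflbC against dCA (-1.58 and -1.10), calls that ended with no scaling (-0.99 and -0.50) and with limma on log2 RPKM. That of ClrB also ended with upper-quartile scaling and without dCA replicate 2 (-0.89) or dPoflbC replicate 1. XlnR was called in 15 of 19 alternatives and ClrB in 12 of 19. PDE_06439 also fell in dPoflbC against dCA, and PDE_02886 rose. Over all genes tested, 15.8% were called lower and 11.4% higher. With no scaling the call of PDE_06439 ended too (-0.93). A link between these regulators and the pair was not tested.

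A marker of spore formation was, like PDE_02886, highest in dPoflbC and lowest in dCA. The search for BrlA, AbaA, WetA, hydrophobins and conidial genes found 2 genes, both with a BrlA entry, and no other marker on the list is named in the table. BrlA (PDE_00087), a regulator known in Aspergillus for switching on the making of spores, was at 75.1 ± 6.31 RPKM in dPoflbC, 13.3 ± 2.22 RPKM in dPoClrC and 3.66 ± 1.97 RPKM in dCA. It rose in all 3 comparisons (3.81 in dPoflbC against dCA, 1.60 in dPoClrC against dCA and 2.21 in dPoflbC against dPoClrC). Over all genes tested, 11.4%, 5.69% and 9.05% were called higher in these comparisons. PDE_02886 was called only in dPoflbC against dCA. PDE_00079, the other gene with that entry, had 0 to 6 reads in a library and was not tested. In cultures sequenced whole, more cells of a kind and more RNA per cell cannot be told apart, and the part of spore formation in the values of PDE_02886 was not tested.

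Genes with locus numbers within 3 of each gene were also read. That these lie side by side in the genome was not checked, and a shared change was not tested. Over all genes tested, 11.4% were called higher and 15.8% lower in dPoflbC against dCA. The shares were 5.69% and 7.35% in dPoClrC against dCA, and 9.05% and 13.6% in dPoflbC against dPoClrC. Beside PDE_02886, the gene with the next number, PDE_02887, was at 12.7 ± 1.49 RPKM in dPoflbC, 4.27 ± 0.853 RPKM in dPoClrC and 1.09 ± 0.437 RPKM in dCA. It is described as a hypothetical protein and rose in dPoflbC against dCA (2.95), in dPoClrC against dCA (1.66) and in dPoflbC against dPoClrC (1.29). PDE_02884, whose KEGG entry reads C-8 sterol isomerase, an enzyme of ergosterol synthesis, was at 115 ± 4.44 RPKM in dPoflbC, 52.7 ± 8.26 RPKM in dPoClrC and 18.8 ± 9.45 RPKM in dCA, and rose in dPoflbC and in dPoClrC against dCA (2.07 and 1.22). PDE_02883 and PDE_02889 were called in no comparison, and PDE_02885 and PDE_02888 had too few reads to be tested.

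Beside PDE_06439, the preceding number belongs to PDE_06438, a putative beta-1,4-mannanase, which cuts the backbone of mannan, another hemicellulose. Its level was 3.39, 3.11 and 3.76 RPKM in dPoflbC, 7.51, 5.40 and 4.28 RPKM in dPoClrC and 24.7, 43.4 and 46.2 RPKM in dCA. The strain means stood in the same order as those of PDE_06439, and dCA replicate 1 was the lowest of dCA in both genes, but here the libraries of the 3 strains did not overlap. Its log2 fold change was -4.10 in dPoflbC against dCA and -3.08 in dPoClrC against dCA. Its fall in dPoflbC against dPoClrC (-1.02) was no longer called in 12 of 19 alternatives. PDE_06442, a hypothetical protein, rose in dPoflbC against dCA (1.23), and PDE_06436, also a hypothetical protein, rose in dPoClrC against dCA (1.32) and fell in dPoflbC against dPoClrC (-2.18). PDE_06437, PDE_06440 and PDE_06441 were called in no comparison. PDE_06441, a putative beta-1,3-glucanosyltransferase, was at 614 ± 5.71 RPKM in dPoflbC, 752 ± 24.3 RPKM in dPoClrC and 582 ± 116 RPKM in dCA.

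The genes whose pattern was most like that of each gene were found by the root mean square difference of log2 counts per M after scaling, each gene centred on its mean over the 9 libraries. By this measure the 2 xyloglucan endoglucanases were at 1.07 from each other, farther than most genes: PDE_06439 ranked 7521 of 8680 genes by nearness to PDE_02886. The annotated gene nearest to PDE_02886 was the putative beta-glucosidase PDE_01565, at 0.116, which was also the nearest of all genes. Its level was 17.4, 21.4 and 19.9 RPKM in dPoflbC, 11.4, 12.9 and 15.8 RPKM in dPoClrC and 7.73, 6.07 and 7.16 RPKM in dCA. A beta-glucosidase releases glucose from short chains. By RPKM the levels of this one stepped down over the strains as in PDE_02886, an order that its choice by likeness favoured. After scaling, its dPoflbC and dPoClrC libraries overlapped (log2 fold change 0.27, edgeR adjusted p = 0.119). Its log2 fold change in dPoflbC against dCA, 0.91, did not reach the fold threshold.

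The next 4 annotated genes near PDE_02886 were PDE_04470 (a peptidylprolyl isomerase domain and WD repeat protein, 0.142), PDE_00240 (a putative mannosyltransferase, 0.148), PDE_06976 (a DNA polymerase phi entry, 0.161) and PDE_00986 (a ribosome recycling factor entry, 0.169). Near PDE_06439 the first was PDE_04619, whose entry reads hydroxymethylglutaryl-CoA lyase, an enzyme of leucine breakdown and ketone body formation, at 0.132. Its level was 12.0, 10.2 and 12.9 RPKM in dPoflbC, 18.1, 14.3 and 16.3 RPKM in dPoClrC and 14.3, 28.8 and 25.6 RPKM in dCA. By RPKM dCA replicate 1 lay level with the lowest dPoClrC library, and after scaling it lay within the range of dPoClrC. The choice of this gene by likeness favoured such a pattern. The others were PDE_04085 (propionyl-CoA synthetase, 0.205), PDE_07946 (catechol 1,2-dioxygenase, 0.207), PDE_03185 (pyruvate dehydrogenase kinase, 0.209) and the putative alpha-L-arabinofuranosidase PDE_07080 (0.228), a hemicellulose side-chain enzyme that was at 34.4 ± 2.57 RPKM in dPoflbC, 44.6 ± 9.59 RPKM in dPoClrC and 56.0 ± 12.4 RPKM in dCA. The median of this difference over all genes was 0.587 for PDE_02886 and 0.737 for PDE_06439.

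**Figure D4:**
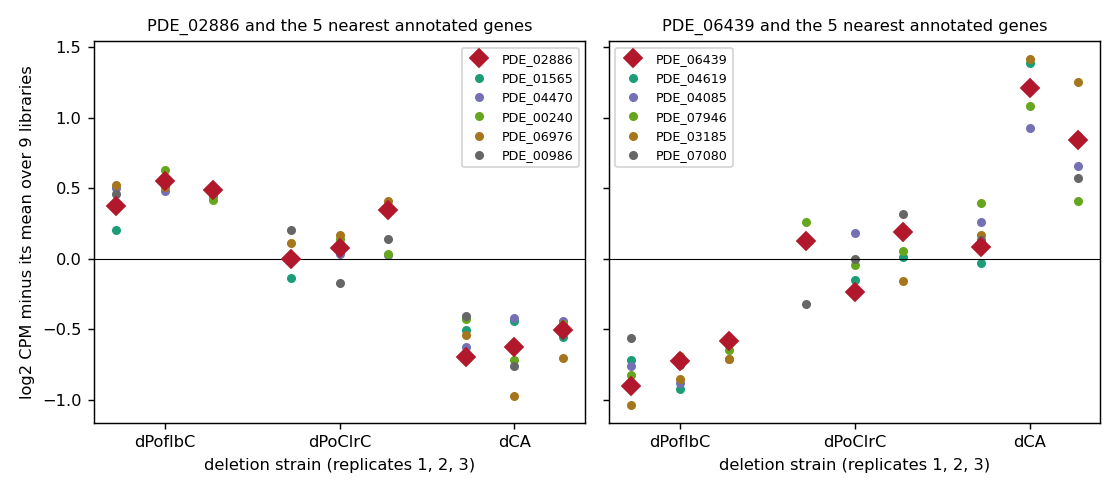
Log2 counts per M after TMM scaling, minus the mean over the 9 libraries, of PDE_02886 (left) and PDE_06439 (right) as large diamonds and of the 5 annotated genes nearest to each as dots; replicates 1, 2 and 3 of each strain stand side by side. The genes near PDE_02886 were highest in dPoflbC and lowest in dCA, those near PDE_06439 lowest in dPoflbC. Their choice by likeness over these same libraries favoured these orders.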

How the data were processed

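RNA sequencing libraries of 9 cultures were compared. CASAVA 1.8 is listed in the submitters' processing notes, and no aligner, counter, build or gene model is given in the sources used here. The authors deposited whole read counts per gene, whose column totals equal those in the header in 9 of 9 libraries, RPKM, which equals reads per kilobase per M reads in genes, and the percent of gene length covered by reads, per the file headers. Deposited dashes were taken as 0. Gene lengths are multiples of 3 in 99.97% of rows and are called coding length. The reference table matched 0 locus numbers.

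Strains came from the sample titles and columns from the codes in the sample descriptions. Genes were kept by filterByExpr (8681 of 9786), scaled by TMM and tested with edgeR 4.0.16 (glmQLFit, glmQLFTest) in one fit of all 9 libraries without a replicate block, two-sided, with the call rule of the report; the standard error is the log2 fold change over the root of F. No label says how replicates were made, so p-values measure the spread between these samples. Alternatives were DESeq2 1.42.0, limma 3.58.1 on log2(RPKM + 1, 0.1 or 5), other scalings, no filter, the 2 strains alone, a replicate block and leaving out each library. The edgeR script was tested on simulated data. The genes, lists and rules were chosen with earlier results of these data known. Genes named are the pair, the 5 nearest annotated genes, locus numbers within 3, XlnR and ClrB, and the BrlA markers. The 4 highest and 2 most changed called members per list and direction are also named. PDE_02413 is named as the untested gene. PDE_03010, PDE_06944, PDE_04858, PDE_03711, PDE_09014 and the beta-galactosidases were added after their values were seen.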

Additional observations from a re-analysis of the deposited data

How the results depend on the processing

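Of 447 values recomputed under an alternative, 380 stayed on their side of the threshold or within their spread; the cause of the others was not tested. None of the 186 among them that were fold changes of the pair or differences in ratio changed sign. PDE_02886 in dPoClrC against dCA was called with no scaling (1.06) and with limma on log2(RPKM + 1) (1.03) or log2(RPKM + 0.1) (1.07). PDE_06439 in dPoflbC against dCA was not called with no scaling (-0.93) or with limma at 1 (-0.84), 0.1 (-0.89) or 5 (-0.67). In dPoClrC against dCA it ran from -1.01 (called) to -0.48 over leave-one-out settings. In dPoflbC against dPoClrC the adjusted p of both genes was under 0.05 in 5 of 9 such settings and reached 0.124 for PDE_02886 and 0.0912 for PDE_06439.

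Side-chain enzymes called higher in dPoflbC against dCA numbered 2 with DESeq2 size factors, DESeq2, no filter, the 2 strains alone or limma at 5, 4 with upper-quartile scaling, 5 with no scaling or limma at 1 or 0.1, and 2 to 3 over leave-one-out settings, against 1. Those called lower numbered 15 with no scaling or limma at 0.1, 14 at 1 and 13 at 5, against 23. In dPoClrC against dCA, 5 were higher with no scaling or limma at 0.1, 3 with upper-quartile scaling or limma at 1, 2 at 5, and 0 to 3 over leave-one-out settings; 6 were lower with DESeq2 and 1 to 6 over leave-one-out settings. In dPoflbC against dPoClrC, 2 were higher with no filter, 0 with limma at 1 or 5 and 1 to 2 over leave-one-out settings, and 13 were lower with limma at 5. Of the other endoglucanases, 1 was higher in dPoflbC against dCA and against dPoClrC with no scaling, upper-quartile scaling or limma at any of the 3 pseudocounts, and 0 to 1 over leave-one-out settings.

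Same-numbered libraries showed no larger shared deviations than others (correlations of -0.176 to 0.12 over 9 pairs, against -0.126 to 0.174 over 18 pairs). Whether the numbers mark samples handled together is not settled by this. With a replicate block the exact p of the ratio of PDE_06439 to the other endoglucanases was 0.0556, and calls in dPoflbC against dCA numbered 2332, against 2356. PDE_06439 had 49 to 121 reads a library, and its spread between replicates beyond counting was 20.8%.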

Other observations

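Among the other endoglucanases, PDE_03711 had a higher mean RPKM in dPoflbC than in dCA by more than its replicates spread, a gene chosen after its values were seen. Its level was 196, 180 and 186 RPKM in dPoflbC, 102, 66.1 and 69.1 RPKM in dPoClrC and 68.8, 57.4 and 68.7 RPKM in dCA. Its dPoflbC libraries lay above all others, while dPoClrC and dCA overlapped, unlike in PDE_02886. Its log2 fold change was 0.94 in dPoflbC against dCA (edgeR adjusted p = 0.000304) and 0.97 against dPoClrC (adjusted p = 0.000291), both just under the fold threshold, and it was called in 6 and 7 of 19 alternatives.

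Beta-galactosidases remove the galactose of xyloglucan side chains, and the 5 genes described so were read after values of this list were seen. In dPoflbC against dCA the putative beta-galactosidase PDE_02532 was at 13.7 ± 1.71 RPKM in dPoflbC and 4.61 ± 0.446 RPKM in dCA (log2 fold change 0.98, edgeR adjusted p = 0.000131); it did not reach the fold threshold, and was called in 10 of 19 alternatives. PDE_04120 was at 32.9 ± 2.62 RPKM in dPoflbC and 12.2 ± 1.34 RPKM in dCA (0.85, called in 5 of 19). PDE_00282 was at 76.1 ± 9.11 RPKM in dPoflbC and 101 ± 16.3 RPKM in dCA; its log2 fold change of -1.03 was called, but ended in 10 of 19 alternatives, among them no scaling (-0.41) and leaving out dCA replicate 2 (-0.73) or dPoflbC replicate 3. PDE_08659 (-0.70) and PDE_00076 (-0.25) were not called in the main test or in any of the 19, and the value of PDE_00076 changed sign in 4 of them.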
